A study of Mus musculus with 6 samples.

Results

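The open chromatin of the Myc locus was compared between activated mouse CD8+ T cells that had shared a culture with 2 kinds of lung tumour cell. The regions were chosen by position alone. Every peak whose summit lay inside Myc, or within 100 kb of it with Myc as the nearest protein-coding RefSeq gene, was taken as a Myc peak. Every peak with its summit over 100 kb and up to 2 Mb away on the same chromosome was listed apart as a candidate distal element. Peaks of different libraries that overlapped by at least 1 bp were merged, which gave 42 Myc regions from 177 peaks and 327 distal regions from 1230 peaks. The whole series held 134174 such regions from 573921 peaks.

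In the Res-shFabp7 group (3 libraries), the T cells were cultured for 48 h below a porous membrane with PD-1-resistant lung adenocarcinoma cells that carried a short hairpin RNA against Fabp7, a fatty acid binding protein. In the Res-ctrl group (3 libraries), the resistant tumour cells above the membrane were the control line. In both groups the T cells came from mouse spleen by removal of the other cell types and were activated with antibodies against CD3 epsilon and CD28. The knockdown was in the tumour cells and not in the cells that were sequenced, and the membrane kept both kinds of cell apart. The sources used here do not give the mouse strain, genotype and age, nor the number of hairpins and tumour cell clones. ATAC-seq, which tags open DNA with adapters by a transposase, gave the accessibility, and the labels call the 3 libraries of each group biological replicates.

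Myc is a transcription factor that binds E-box sequences with its partner Max and raises the expression of genes for ribosome production, amino acid transport, glycolysis and cell division. Naive CD8+ T cells hold little Myc, and signals through the T cell receptor, CD28 and interleukin 2 induce it within hours of activation. The gene lies in a wide gene-poor interval, next to the long noncoding RNA gene Pvt1, and its expression in different tissues is known to depend on enhancers spread far to both sides. A Notch-dependent enhancer known from mouse thymocytes and T cell leukaemia and a cluster of blood cell enhancers both lie far downstream, between Pvt1 and the Gsdmc genes.

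The libraries differed in depth. The Res-shFabp7 lists held 100243 to 105796 peaks and the Res-ctrl lists 82153 to 96310, and the background coverage recovered from the lists was 0.868 to 1.03 fragments against 0.608 to 1.01. Res-ctrl replicates 1 and 2 had the lowest background, so that a peak missing from them may have been below detection and is not shown to be closed. All 6 T cell marker genes examined had regions that every library held, among them Cd8a with 7 and Cd8b1 with 12. Among the defining genes of other cell types, no library had a peak at Krt8, Sftpc or Ms4a1. Others had regions that every library held, with 9 each at Klrb1c and Itgam, 5 at Cd4 and 4 each at Spi1, Foxp3 and Epcam. Pax5 had 3 and Lyz2 had 1, and Cd79a, Csf1r, Ncr1 and Nkx2-1 had peaks in some libraries. Epcam, Pax5, Spi1 and Cd4 had regions that differed between groups in height or in the presence of a peak.

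The Myc gene occupies 5021 bp at chr15:61985341-61990361 (mm10). The gene table used here gives neither strand nor exons, so exons, introns and UTRs are not assigned, and upstream and downstream are counted with Myc on the plus strand, which is background knowledge. Of the 42 Myc regions, 6 had their summit inside Myc, 15 inside Pvt1 and 21 in neither gene. Within 2 Mb of Myc the other protein-coding genes were 4933412E24Rik, Lratd2 and A1bg upstream and 4 Gsdmc genes and Cyrib downstream, which left 1064.1 kb on the upstream side and 1785.6 kb on the downstream side with no other protein-coding gene.

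Promoter sequence was printed for the single member peak of 1 group that fell in a promoter of the RefSeq table, so that the bases under the peak can be read. This peak lay at the start of Gm41331, a long noncoding RNA gene, with its summit 1843.7 kb upstream of Myc. It was not specific to a group with equal numbers of peaks, and the lack of a peak with Res-ctrl does not show closed DNA. The promoter window is chr15:60141576-60141875 (GRCm38.p6, plus strand, from RefSeq), and capitals mark the 94 bases inside the region at chr15:60141547-60141669, which had a peak in the 3 Res-shFabp7 libraries and in no Res-ctrl library.
Gm41331: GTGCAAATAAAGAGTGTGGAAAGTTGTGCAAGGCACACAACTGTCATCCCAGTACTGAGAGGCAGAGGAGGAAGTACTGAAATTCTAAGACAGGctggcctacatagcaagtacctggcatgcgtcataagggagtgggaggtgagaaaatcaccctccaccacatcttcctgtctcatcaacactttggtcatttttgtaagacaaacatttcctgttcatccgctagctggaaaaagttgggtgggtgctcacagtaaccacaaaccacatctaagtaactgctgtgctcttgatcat
Of 10 motifs searched on both strands, this window held TGTGGT (RUNX) at 3 places and GGAAAA (NFAT) at 1 place. Of these matches, 0 touched the capitals, the bases under the peak. Of all 32851 promoter windows of that length, 16.8% held TGTGGT and 23.4% held GGAAAA. The window held none of CACGTG (E-box), TGANTCA (AP-1), CCGGAA (ETS), CTTTGA (TCF/LEF), GTGGGAA (RBPJ), TTCNNNGAA (STAT), GGGNNTTCC (NF-kB) and AGGNGGC (CTCF core). Matches of GGAAAA can overlap those of CCGGAA and GTGGGAA, and a match is a description of letters and not a binding site.

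**Figure D1:**
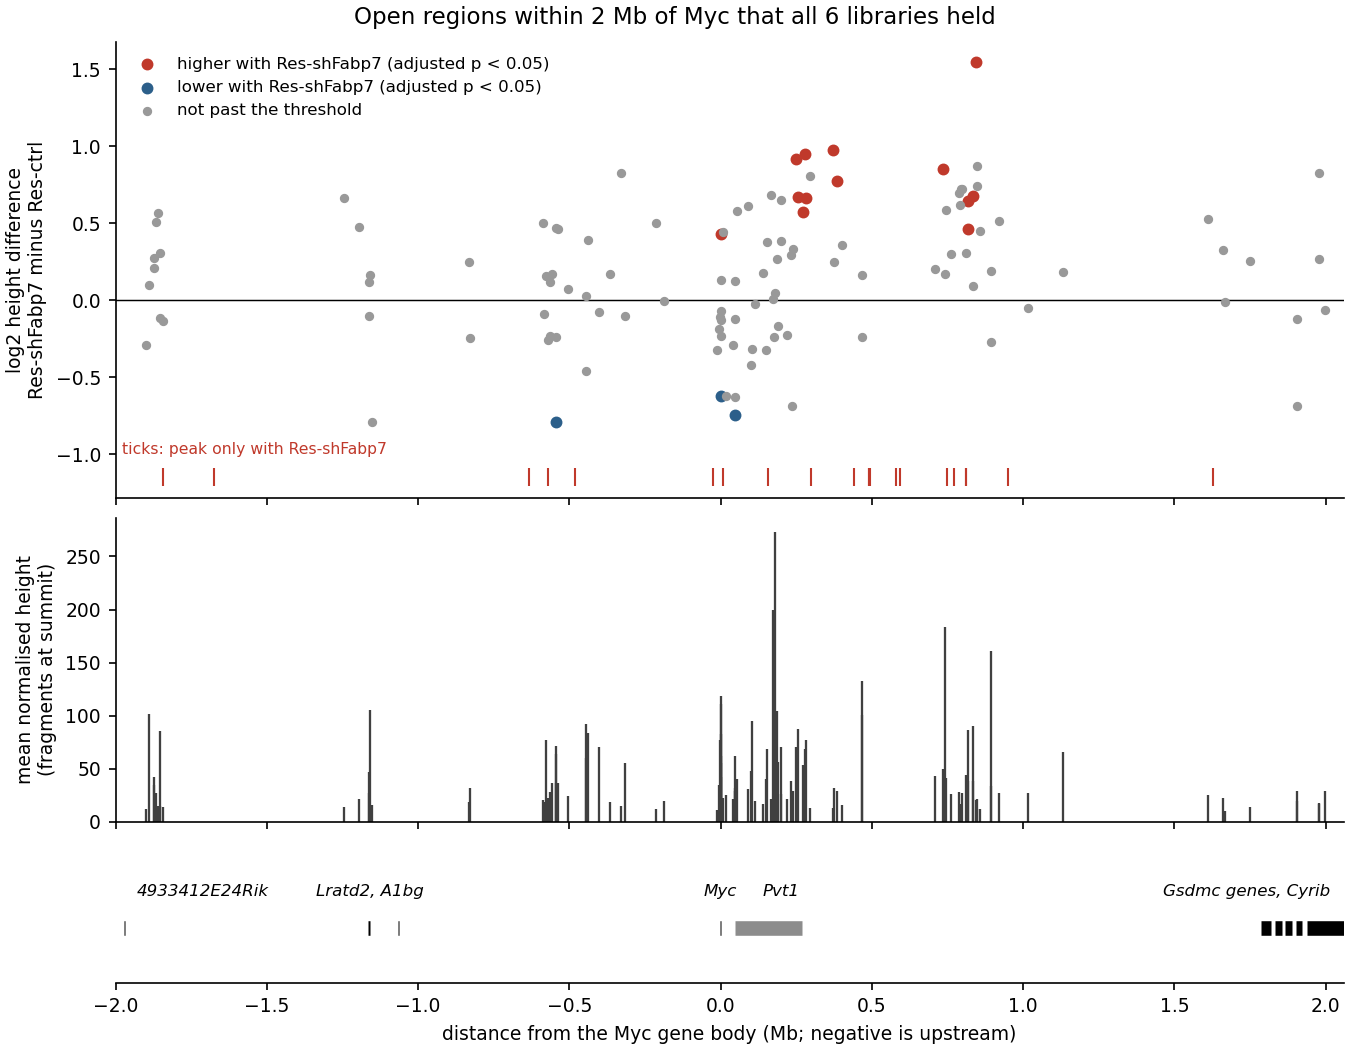
Open regions within 2 Mb of Myc by distance from the gene body (Mb, negative upstream). The top panel shows the log2 height difference, Res-shFabp7 minus Res-ctrl, of each region that all 6 libraries held, with the 13 regions past the threshold as higher in red, the 3 lower ones in blue, and ticks for regions with a peak only with Res-shFabp7. The middle panel shows the mean normalised height in fragments and the bottom panel the genes (protein-coding in black, others in grey). The 12 higher distal regions sit 249.8 to 843.0 kb downstream.

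Around the Myc gene itself, few regions passed a test, and those that did moved in both directions. All 6 libraries held 18 of the 42 Myc regions (42.9%, against 42.2% of all regions), 13 were held by 2 to 5 libraries and 11 by 1 library. The Res-shFabp7 libraries had 32, 35 and 31 Myc peaks and the Res-ctrl libraries 26, 23 and 30. These counts did not overlap, but the lists differ in length. Per 1000 peaks of its own list, Myc had 0.306, 0.331 and 0.309 in the Res-shFabp7 libraries and 0.306, 0.280 and 0.311 in the Res-ctrl libraries, and the ranges overlapped. The difference of the means was 0.0161 per 1000 (two-sided exact permutation p = 0.5, where 3 against 3 libraries cannot go below 0.1). With equal numbers of peaks, the 82153 strongest of each list, both groups averaged 0.304 per 1000.

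The tallest Myc region lay at the start of the gene (chr15:61985360-61985688, summit 269 bp after the annotated start). Its pileup, the coverage signal at the summit, was 138, 130 and 134 in the Res-shFabp7 libraries and 100, 81 and 140 in the Res-ctrl libraries. The sources used here do not say whether pileups were scaled between libraries. The word fragments in the text and figures stands for this signal. The deposited pileups overlapped because Res-ctrl replicate 3 was the highest of all. Heights were compared between groups after quantile normalisation of log2 pileup over the 56610 regions that all libraries held, with limma and Benjamini-Hochberg adjustment over all of them. On that scale the start region differed by 0.13 log2 (SE 0.11, adjusted p = 0.56 by limma) and was not past the threshold of 0.05.

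Just upstream of the start, the promoter-proximal region was taller with Res-shFabp7. At chr15:61984905-61985268, with its summit 162 bp before the start, the pileup was 137, 135 and 146 in the Res-shFabp7 libraries and 76, 78 and 112 in the Res-ctrl libraries. All Res-shFabp7 values lay above all Res-ctrl values. The normalised height was higher by 0.43 log2 (SE 0.12, adjusted p = 0.021 by limma), which is 35.0% more. The call was lost without any one of the 3 Res-shFabp7 libraries and without Res-ctrl replicate 1, while the difference stayed at 0.39 to 0.48 log2 over the 6 fits that left out 1 library. It was also lost under median scaling (0.34 log2, adjusted p = 0.069 by limma) and with the authors' fold in place of the pileup (0.22 log2, adjusted p = 0.60 by limma).

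Inside the gene, 1 region fell with Res-shFabp7. At chr15:61987890-61988081, 2670 bp after the start, the pileup was 50, 53 and 65 in the Res-shFabp7 libraries and 82, 61 and 71 in the Res-ctrl libraries. The deposited pileups overlapped, and the normalised heights did not. The difference was -0.62 log2 (SE 0.17, adjusted p = 0.018 by limma). It was no longer past the threshold without Res-shFabp7 replicate 1 or 2 or without Res-ctrl replicate 1 or 2, with -0.81 to -0.46 log2 over the fits that left out 1 library.

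The neighbouring regions of the gene body did not pass the threshold. The broadest of them (chr15:61986711-61987348) had 86, 94 and 86 fragments in the Res-shFabp7 libraries and 67, 68 and 104 in the Res-ctrl libraries. The region nearest to the lowered one (chr15:61988196-61988320) had 55, 54 and 63 fragments with Res-shFabp7 and 62, 56 and 48 with Res-ctrl. In both the groups overlapped, with -0.07 log2 (adjusted p = 0.82 by limma) and -0.23 log2 (adjusted p = 0.51 by limma). A region 1.8 kb upstream of the start (chr15:61983358-61983628) had 97, 79 and 69 fragments with Res-shFabp7 and 78, 65 and 77 with Res-ctrl, again overlapping, at -0.11 log2 (adjusted p = 0.74 by limma).

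At the beginning of Pvt1, the noncoding gene that starts 47.6 kb downstream of Myc, 1 region was lower. In human cells the PVT1 promoter is known to compete with the MYC promoter for enhancers. The region at chr15:62039042-62039284, inside Pvt1 and 48.8 kb downstream of Myc, had pileups of 55, 50 and 55 in the Res-shFabp7 libraries and 82, 55 and 88 in the Res-ctrl libraries. The groups touched at 55 fragments and were apart after normalisation. The difference was -0.74 log2 (SE 0.16, adjusted p = 0.0027 by limma). It was past the threshold in 5 of the 6 fits that left out 1 library and not without Res-ctrl replicate 1, where it was -0.60 log2.

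The other regions at the Pvt1 start moved in both directions without passing the threshold. The region across the annotated start (chr15:62037678-62038060) had 30, 23 and 29 fragments with Res-shFabp7 and 31, 33 and 34 with Res-ctrl, which did not overlap, at -0.63 log2 (adjusted p = 0.090 by limma). A region 53.6 kb downstream of Myc (chr15:62043707-62044113) had 53, 56 and 56 fragments with Res-shFabp7 and 27, 22 and 42 with Res-ctrl, which did not overlap either, at 0.58 log2 (adjusted p = 0.067 by limma). Another region, 48.2 kb downstream, had 43, 32 and 40 fragments with Res-shFabp7 and 25, 20 and 40 with Res-ctrl, at 0.12 log2 (adjusted p = 0.80 by limma).

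Over the 18 Myc regions tested, 1 was higher (5.6%) and 2 were lower (11.1%). Over all 56610 regions 3.13% were higher and 1.40% lower. The median difference of the 18 was -0.12 log2, beside -0.01 log2 over all regions, and 6 of the 18 differences were above 0. In 4 regions (22.2%) all Res-shFabp7 heights lay above all Res-ctrl heights and in 4 (22.2%) they lay below. The shares over all regions were 11.2% and 10.6%. These are descriptions of a short list, and no test of the locus against the rest of the genome was made.

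**Figure D2:**
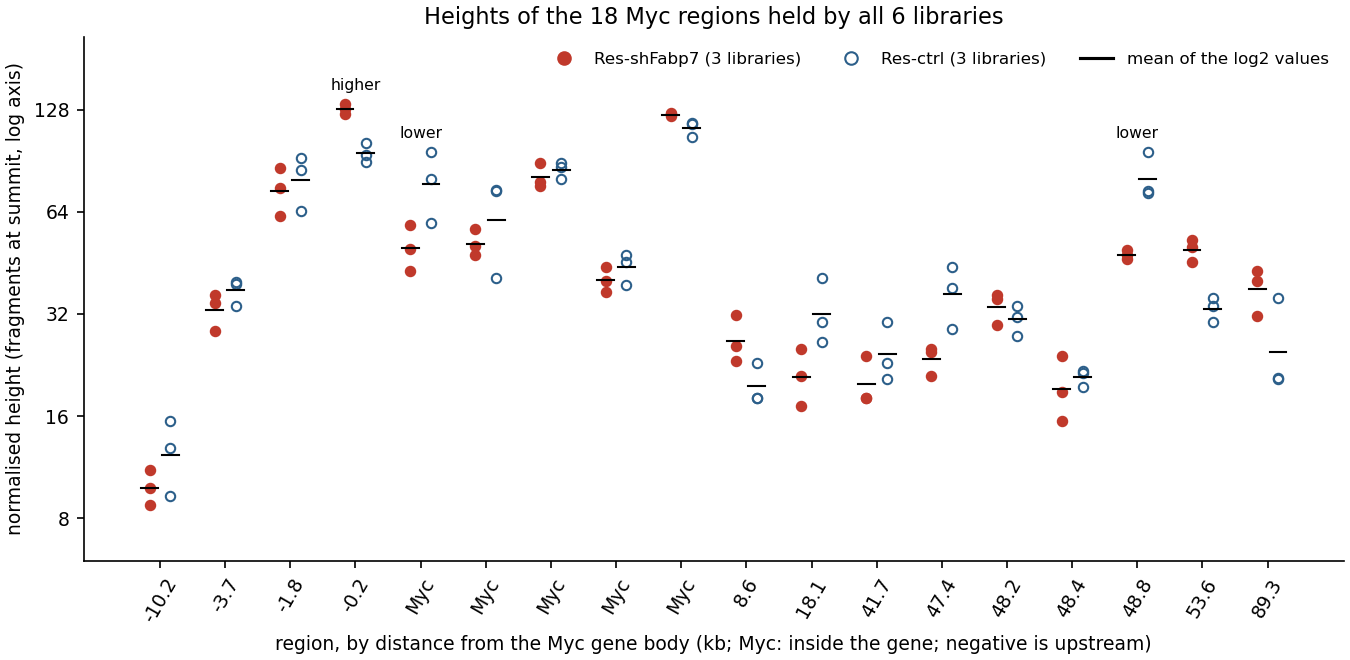
Normalised height (fragments at the summit, log axis) of the 18 Myc regions held by all 6 libraries, ordered along the chromosome. Filled points are the Res-shFabp7 libraries, open points the Res-ctrl libraries and bars the mean of the log2 values (3 libraries each). The marked regions are those past the threshold, and in the other 15 the differences ran from -0.63 to 0.61 log2.

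Of the Myc regions, 2 had a peak in all Res-shFabp7 libraries and in no Res-ctrl library, and 0 the reverse. Over all regions these shares were 2.28% and 0.155%. The first lay 23.7 kb upstream (chr15:61961457-61961655), with pileups of 15, 7 and 9. The second lay 9.4 kb downstream (chr15:61999674-61999890), with 11, 11 and 14. Both were short peaks, and neither was specific to a group with equal numbers of peaks. The next region towards Myc, 8.6 kb downstream (chr15:61998581-61999115), had 38, 28 and 27 fragments with Res-shFabp7 and 18, 13 and 21 with Res-ctrl, at 0.44 log2 (SE 0.25, adjusted p = 0.31 by limma).

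Farther out, peaks were more frequent with Res-shFabp7. The distal window held 254, 236 and 236 peaks in the Res-shFabp7 libraries and 153, 154 and 197 in the Res-ctrl libraries, a mean of 242 ± 10.4 against 168 ± 25.1 (SD of 3 libraries) and no overlap. Per 1000 peaks of the list there were 2.43, 2.23 and 2.35 with Res-shFabp7 and 1.80, 1.87 and 2.05 with Res-ctrl. The groups did not overlap, and the means differed by 0.430 per 1000 or 1.23-fold (exact permutation p = 0.1, two-sided, with no smaller value possible for 3 against 3). With equal numbers of peaks the means were 2.11 with Res-shFabp7 and 1.85 with Res-ctrl, a difference of 0.260 (exact permutation p = 0.1).

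Gene-distant peaks were more frequent with Res-shFabp7 over the whole genome as well. Peaks over 100 kb from any protein-coding gene made up 45.8, 47.0 and 44.9 per 1000 in the Res-shFabp7 libraries and 40.7, 39.6 and 43.0 in the Res-ctrl libraries, a ratio of 1.12 (exact permutation p = 0.1). Whether the 1.23-fold of the Myc window differs from that was not tested. Within the window, the Res-shFabp7 libraries averaged 1.47 ± 0.090 peaks per 1000 downstream of Myc and the Res-ctrl libraries 1.15 ± 0.13 (SD of 3 libraries). Upstream of Myc the Res-shFabp7 libraries averaged 0.867 ± 0.029 and the Res-ctrl libraries 0.753 ± 0.033, and on neither side did the groups overlap.

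**Figure D3:**
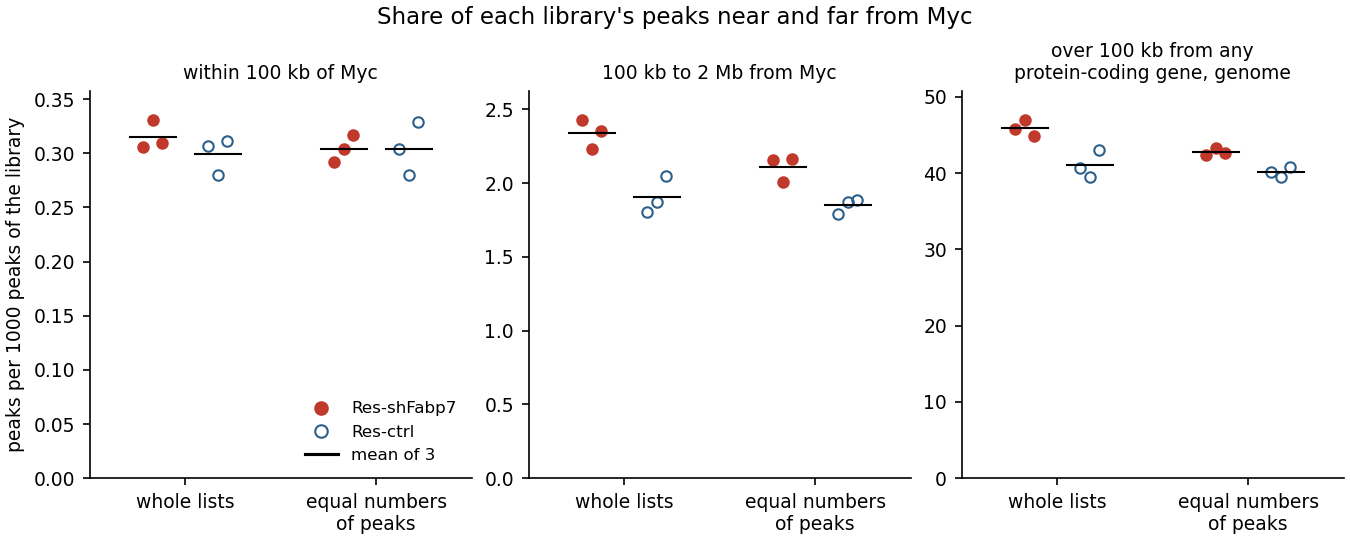
Peaks per 1000 peaks of each library within 100 kb of Myc (left), 100 kb to 2 Mb from Myc (middle) and over 100 kb from any protein-coding gene in the genome (right), for whole lists and for equal numbers of peaks. Points are libraries and bars means of 3. The groups overlap in the left panel, at about 0.3, and are apart in the middle panel, where whole lists average 2.34 with Res-shFabp7 and 1.91 with Res-ctrl.

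Open regions were clustered along the window. Of 40 bins of 100 kb outside the gene body, 17 had no region that all 6 libraries held, against 60.1% of the 27224 bins of the genome. The fullest bins were those 100 to 200 kb downstream with 13 such regions, 500 to 600 kb upstream with 12, and 200 to 300 and 800 to 900 kb downstream with 11 each, where the genome averaged 2.08 per bin. The stretch from 400 to 500 kb downstream had 13, 13 and 12 peaks in the Res-shFabp7 libraries and 3, 3 and 6 in the Res-ctrl libraries. Next to it, from 500 to 600 kb, there were 7, 8 and 8 with Res-shFabp7 and 2, 0 and 3 with Res-ctrl. Both bins were apart between groups in raw counts, and together they held 6 of the regions with a peak only with Res-shFabp7. Other bins on both sides of Myc were apart too. Of the fullest bins, those 500 to 600 kb upstream and 800 to 900 kb downstream were apart. Those 100 to 200 and 200 to 300 kb downstream overlapped. Wherever a bin was apart, Res-shFabp7 had more peaks. The counts were not scaled to list length, which was greater with Res-shFabp7, and differences beyond list length were not tested by bin.

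Between 1000 and 1900 kb downstream, peaks were few apart from 1 cluster. From 1200 to 1300 kb downstream, about where the Notch-dependent enhancer of thymocytes is known to lie, there were 3, 2 and 1 peaks with Res-shFabp7 and 1, 0 and 2 with Res-ctrl, and no region that all 6 libraries held. From 1600 to 1700 kb, near the blood cell enhancer cluster, there were 7, 8 and 8 with Res-shFabp7 and 4, 5 and 5 with Res-ctrl, with 3 regions held by all 6 and 0 past the height threshold. From 1700 to 1800 kb there were 1, 2 and 3 with Res-shFabp7 and 1, 1 and 2 with Res-ctrl, with 1 region held by all. The window filled again at its far edge, from 1900 to 2000 kb, with 19, 14 and 12 peaks with Res-shFabp7 and 9, 7 and 14 with Res-ctrl, which overlapped, and 5 regions held by all 6, of which 0 passed the height threshold.

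**Figure D4:**
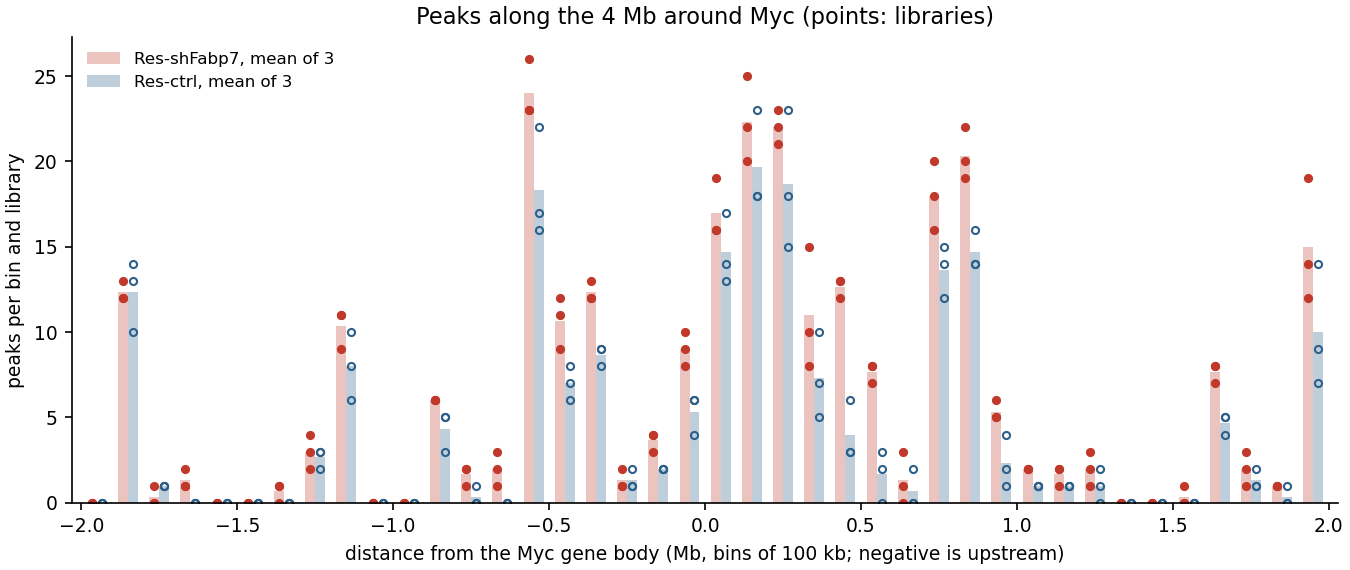
Peaks per library in bins of 100 kb along the 4 Mb around Myc (distance in Mb, negative upstream). Bars are means of 3 libraries and points the libraries. Clusters appear 0.5 to 0.6 Mb upstream and 0.1 to 0.3 and 0.7 to 0.9 Mb downstream, and the bin from 0.4 to 0.5 Mb downstream averages 12.7 in Res-shFabp7 libraries and 4.0 in Res-ctrl libraries.

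All 6 libraries held 100 of the 327 distal regions (30.6%), 144 were held by 2 to 5 libraries and 83 by 1. Of the 327, 51 had their summit inside Pvt1 and 237 inside no annotated gene. The tallest distal regions were not those that differed. In the middle of Pvt1, 179.4 kb downstream of Myc (chr15:62169201-62170195), the pileup was 315, 264 and 316 in the Res-shFabp7 libraries and 228, 236 and 289 in the Res-ctrl libraries. The groups overlapped, and after normalisation the region differed by 0.05 log2 (SE 0.08, adjusted p = 0.78 by limma). Of the regions that all libraries held, it was in the tallest 2.89% of the genome and stood well above the Myc promoter.

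A second tall element of Pvt1, 174.6 kb downstream (chr15:62164625-62165117), had 210, 208 and 226 fragments with Res-shFabp7 and 179, 149 and 236 with Res-ctrl. Its difference was 0.01 log2 (adjusted p = 0.97 by limma). Outside any gene, the region 740.4 kb downstream (chr15:62730529-62730942) had 214, 196 and 218 fragments with Res-shFabp7 and 148, 134 and 209 with Res-ctrl, at 0.17 log2 (adjusted p = 0.28 by limma). The region 895.2 kb downstream (chr15:62885321-62885981) had 172, 178 and 206 with Res-shFabp7 and 108, 132 and 189 with Res-ctrl, at 0.19 log2 (adjusted p = 0.31 by limma). None of these tall regions passed the threshold.

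The remaining 4 of the 8 tallest distal regions did not pass it either, with 0.10 to 0.27 log2. They lay 467.8 kb downstream, 187.5 kb downstream in Pvt1, 1887.9 kb upstream, and 1160.5 kb upstream at Lratd2, a protein-coding neighbour. The Lratd2 region had 106, 130 and 130 fragments with Res-shFabp7 and 84, 73 and 125 with Res-ctrl, which overlapped, and an adjusted p of 0.49 by limma.

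The distal regions that passed the threshold were less tall than these and lay mostly downstream. Of the 100 distal regions tested, 12 were higher and 1 was lower with Res-shFabp7, where 3.13% and 1.40% of all regions were. Among 2135 regions over 100 kb from any protein-coding gene elsewhere in the genome, 6.00% were higher and 1.12% lower, and on chromosome 15 outside the window 2.16% and 1.68%. All 12 lay downstream, among 62 tested there, and the lower one lay upstream, among 38. The median difference was 0.32 log2 downstream and 0.12 log2 upstream, beside 0.05 log2 in the gene-distant regions elsewhere. In 33 of the 100 all Res-shFabp7 heights lay above all Res-ctrl heights and in 7 they lay below, where 16.8% and 8.38% of the gene-distant regions elsewhere did. No test of the window against those regions was made.

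The first group of higher regions lay at the far end of Pvt1 and just behind it. At 249.8 kb downstream of Myc (chr15:62240017-62240398, in Pvt1) the pileup was 112, 100 and 104 in the Res-shFabp7 libraries and 43, 35 and 66 in the Res-ctrl libraries. The groups were far apart, at 0.91 log2 (SE 0.15, adjusted p = 1.1e-04 by limma) or 1.88-fold. The adjoining region, 255.2 kb downstream (chr15:62244810-62245896), had 121, 115 and 124 fragments with Res-shFabp7 and 53, 55 and 87 with Res-ctrl, at 0.67 log2 (SE 0.13, adjusted p = 0.0012 by limma).

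Behind Pvt1, which ends 269.9 kb downstream of Myc, the region at 278.0 kb (chr15:62268146-62268593) had 110, 91 and 110 fragments with Res-shFabp7 and 31, 43 and 65 with Res-ctrl. The groups did not overlap, at 0.95 log2 (SE 0.16, adjusted p = 1.2e-04 by limma). The next one, at 281.1 kb (chr15:62271268-62271867), had 110, 112 and 97 with Res-shFabp7 and 56, 36 and 86 with Res-ctrl, also apart, at 0.67 log2 (SE 0.15, adjusted p = 0.0037 by limma). This call was lost without Res-ctrl replicate 2, where the difference was 0.49 log2.

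A second group lay 736.4 to 843.0 kb downstream, outside any annotated gene. The largest difference of the window was at its far edge, 843.0 kb downstream (chr15:62833066-62833539). There the pileup was 41, 41 and 39 in the Res-shFabp7 libraries and 9, 10 and 13 in the Res-ctrl libraries. Every Res-shFabp7 library exceeded every Res-ctrl library at least 3-fold in deposited pileup, and the normalised height was 2.92-fold higher (1.54 log2, SE 0.25, adjusted p = 1.1e-04 by limma). The region at 736.4 kb (chr15:62726594-62726958) had 66, 73 and 83 fragments with Res-shFabp7 and 20, 26 and 67 with Res-ctrl. Res-ctrl replicate 3 lay just above Res-shFabp7 replicate 1, and the normalised difference was 0.85 log2 (SE 0.19, adjusted p = 0.0048 by limma), lost without Res-shFabp7 replicate 3 (0.78 log2) or Res-ctrl replicate 1 (0.58 log2).

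The other 6 higher regions lay 271.3, 370.5, 384.4, 817.2, 819.1 and 834.8 kb downstream, with differences of 0.46 to 0.98 log2 and adjusted p up to 0.049 by limma. The highest of the differences, at 370.5 kb, was of low peaks, 27, 20 and 17 fragments with Res-shFabp7 and 9, 7 and 8 with Res-ctrl. At 384.4 kb there were 41, 35 and 54 with Res-shFabp7 and 16, 15 and 30 with Res-ctrl. Each of these 6 was past the threshold in 1 or 2 of the 6 fits that left out 1 library. The regions at 249.8, 255.2, 278.0 and 843.0 kb were past it in all 6.

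In 10 of the 12 higher regions all normalised Res-shFabp7 heights lay above all Res-ctrl heights, as in 11.2% of all regions. The 12 were called on these same heights, so the 10 are a description and no further evidence. In 8 of the 12 Res-ctrl replicate 3, the deepest Res-ctrl library, exceeded both other Res-ctrl libraries after normalisation. The share of all regions with that order of the Res-ctrl libraries was not counted, so the 8 are a description alone. The local background around a peak, recovered from its pileup and the authors' fold and set against that of its library, was higher with Res-shFabp7 at 12 of the 12 regions, by a median of 0.46 log2. The local background was higher at 81 of the 100 distal regions (median 0.17 log2) and at 11 of the 18 Myc regions (median 0.02 log2). Over all regions it was higher at 51.7% (median 0.00 log2). At 278.0 kb it was 8.53, 8.77 and 8.19 times the library background with Res-shFabp7 and 4.81, 4.98 and 5.94 times with Res-ctrl. The 12 were chosen by their pileup, from which this background is recovered, so their values are a description and not a second measurement.

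With the authors' fold over this local background in place of the pileup, no region of the genome passed the threshold (lowest adjusted p 0.051 by limma, with 7888 of 56610 at an unadjusted p under 0.05). Of the 12, 11 had a positive difference, from 0.02 to 0.91 log2, and the one at 281.1 kb had -0.03 log2. Over all regions 46.0% had a positive difference of the fold. The fold contains the pileup by which the 12 were chosen, so its sign there is not a second measurement. With Res-ctrl replicate 3 as the single Res-ctrl library, the fit took the 68530 regions that the libraries in it held, a larger set. The median difference was 0.18 log2 over the 138 distal regions and -0.01 log2 over all 68530. The single library was assumed to vary like the others, and it gives no spread of its own group.

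**Figure D5:**
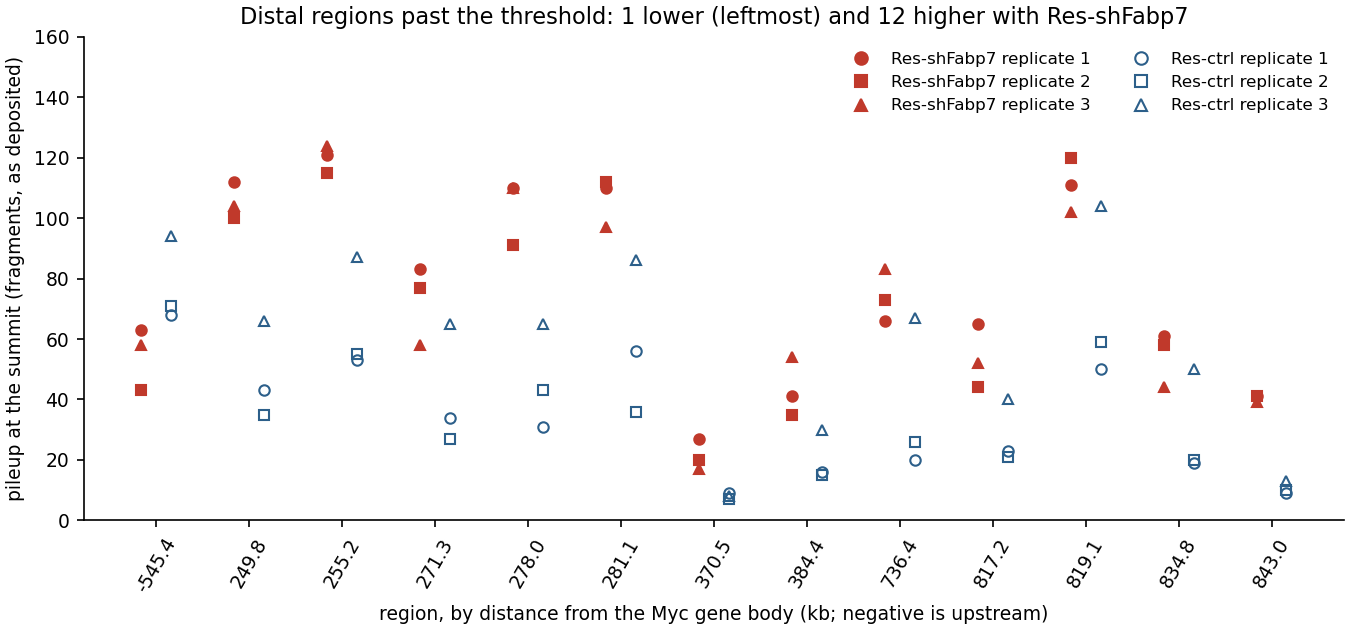
Deposited pileup (fragments at the summit, from 0) of the 13 distal regions past the height threshold, by distance from Myc in kb, with the lower one 545.4 kb upstream at the left. Filled symbols are Res-shFabp7 libraries and open symbols Res-ctrl libraries, with the symbol shape for the replicate number. At 843.0 kb the values are 39 to 41 with Res-shFabp7 and 9 to 13 with Res-ctrl, and Res-ctrl replicate 3 (open triangle) is the highest Res-ctrl value at most regions.

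On the upstream side, 1 region was lower. At 545.4 kb upstream of Myc (chr15:61439803-61440200), outside any annotated gene and in the cluster 500 to 600 kb upstream, the pileup was 63, 43 and 58 in the Res-shFabp7 libraries and 68, 71 and 94 in the Res-ctrl libraries. All Res-shFabp7 values lay below all Res-ctrl values, and the highest, 94, was that of Res-ctrl replicate 3, the deepest Res-ctrl library. The difference was -0.79 log2 (SE 0.16, adjusted p = 0.0013 by limma), and it was past the threshold in all 6 fits that left out 1 library. The 11 other tested regions of that cluster did not pass.

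A peak in all Res-shFabp7 libraries and in no Res-ctrl library occurred at 19 of the 327 distal regions (5.81%), 14 downstream and 5 upstream, and the reverse at 0. The shares were 2.28% and 0.155% over all regions and 3.29% and 0.063% in the gene-distant regions elsewhere. The 19 had weak peaks, with pileups of 6 to 26. With equal numbers of peaks 4 distal regions had this pattern, beside 1.13% of all regions (0.527% for the reverse), and 3 of the 19 were among the specific ones.

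Those 3 also came first of the 19 when ordered by the q-value of the weakest of the 3 libraries. Lists of equal length keep the peaks of best q, so this order is no further evidence for them. At 772.9 kb downstream (chr15:62763132-62763415) the pileup in the Res-shFabp7 libraries was 14, 15 and 20, at 298.2 kb (chr15:62288296-62288749) it was 14, 15 and 13, and at 441.8 kb (chr15:62432078-62432211) 13, 11 and 10. Next came the peak at the Gm41331 promoter printed above, 1843.7 kb upstream, with 10, 9 and 17. The adjoining region over the same promoter (chr15:60141710-60141984) was held by all 6 libraries and differed by -0.13 log2, not past the threshold. The others of the first 8 lay 492.1, 156.7 and 949.1 kb downstream and 1675.6 kb upstream, with pileups of 9 to 17.

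Along the 6 libraries, the mean normalised height of the 18 Myc regions was 5.29, 5.26 and 5.34 log2 with Res-shFabp7 and 5.46, 5.37 and 5.34 log2 with Res-ctrl. Of 1730 genes with at least 8 regions held by all libraries, those with the profile most like it by Pearson's r over the 6 libraries were Srpk2 (0.984), Ddit4 (0.981), Zswim4 (0.977), Trappc12 (0.974) and Cd9 (0.971). With 6 libraries shared by every gene, a high r is a description of these libraries.

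Genes of the Myc network showed changes in both directions. The list of Myc, its partners and its antagonists held 18 genes and 83 tested regions, of which 4 were higher and 6 lower, with a median of -0.08 log2. A peak only with Res-shFabp7 occurred at 4 of its 167 regions, 2 of them those of Myc above, and a peak only with Res-ctrl at 0. The shares of all regions with these patterns were 2.28% and 0.155%. At Mxd3, whose protein pairs with Max and represses E-box genes, the promoter region (chr13:55329660-55330629) had 140, 129 and 143 fragments with Res-shFabp7 and 76, 73 and 124 with Res-ctrl. The groups did not overlap, at 0.40 log2 (SE 0.12, adjusted p = 0.036 by limma). The RefSeq promoter of Mxd3, shown because it lies wholly inside this region, is chr13:55329682-55329981 (GRCm38.p6, minus strand), with the 50 bases from the annotated start on in capitals.
Mxd3: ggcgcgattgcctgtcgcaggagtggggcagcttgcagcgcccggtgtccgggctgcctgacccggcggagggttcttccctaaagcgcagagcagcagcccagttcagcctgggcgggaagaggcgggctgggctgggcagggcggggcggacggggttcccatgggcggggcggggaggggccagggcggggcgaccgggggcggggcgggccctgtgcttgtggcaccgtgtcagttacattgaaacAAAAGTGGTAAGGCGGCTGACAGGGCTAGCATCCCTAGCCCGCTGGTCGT
This window was 71.0% G and C, against 46.0% for Gm41331. It held AGGNGGC (CTCF core) at 1 place, as 29.4% of all promoters did, and none of the other 9 motifs, the E-box CACGTG included, which 7.15% of all promoters held.

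At Mxi1, another antagonist that pairs with Max, the tall region inside the gene (chr19:53314090-53314482) was lower, with 164, 152 and 145 fragments with Res-shFabp7 and 169, 161 and 242 with Res-ctrl. The deposited pileups overlapped, and the normalised difference was -0.50 log2 (SE 0.10, adjusted p = 0.00079 by limma). Max, the common partner, had 1 lower region 90.6 kb from the gene (-1.13 log2, adjusted p = 0.0012 by limma). Mnt, also an antagonist, had 1 lower region (-0.34 log2), and Mga and Mlxipl, 2 further members of the network, had 1 higher region each (0.89 and 0.68 log2).

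Among 25 Myc target genes of growth and metabolism, 6 of 114 tested regions were higher and 0 lower, at 3 genes, with a median of 0.07 log2. Slc7a5 and Slc3a2, which encode the 2 chains of a large neutral amino acid transporter, had 3 and 2 of them, and Hk2, a hexokinase of glycolysis, had 1. At Slc7a5 the region chr8:121898447-121898853 had 130, 119 and 108 fragments with Res-shFabp7 and 49, 50 and 99 with Res-ctrl, which did not overlap, at 0.67 log2 (SE 0.14, adjusted p = 0.0017 by limma). At Slc3a2 the region chr19:8712850-8713152 had 87, 77 and 74 with Res-shFabp7 and 35, 35 and 57 with Res-ctrl, also apart, at 0.66 log2 (SE 0.16, adjusted p = 0.010 by limma). At the other 22 genes, among them Odc1, Ncl, Ldha and Cdk4, no tested region passed the threshold. A peak in all Res-shFabp7 libraries and in no Res-ctrl library occurred at 4 of the 234 regions of these genes, 1 each at Ncl, Odc1, Ldha and Hk2, and the reverse at 0, where 2.28% and 0.155% of all regions had these patterns. The one at Ncl, 601 bp from the gene, was the tallest, with pileups of 26, 19 and 36.

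Among 15 regulators of Myc and its protein, 8 of 159 tested regions were higher and 1 lower, with a median of 0.04 log2. Il2ra, the alpha chain of the interleukin 2 receptor, had 4 of the higher ones. The tallest of these, 5.4 kb outside the gene (chr2:11637092-11637688), had 176, 176 and 173 fragments with Res-shFabp7 and 99, 89 and 160 with Res-ctrl, which did not overlap, at 0.42 log2 (SE 0.11, adjusted p = 0.012 by limma). Fbxw7, which marks the Myc protein for degradation, had 2, and Nfatc1 and Rbpj, a factor of T cell receptor signalling and the DNA-binding partner of Notch, had 1 each. The higher region of Rbpj lay 64742 bp from the gene. The lower region lay near Il2rb, the beta chain of the same receptor (-1.09 log2, adjusted p = 0.0056 by limma). Of the 360 regions of these genes, 2 had a peak only with Res-shFabp7, both in Trim33, and 3 only with Res-ctrl. Those only with Res-ctrl lay in Il2rb, with pileups of 32, 34 and 42, near Nfatc1, with 20, 16 and 28, and near Trim33, with 13, 12 and 25. The background for these 3 lists is the share of all regions, 3.13% higher and 1.40% lower in height. For a peak only with Res-shFabp7 this share is 2.28%, and for a peak only with Res-ctrl 0.155%. No test of a list was made.

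Markers of other cell types were examined beside these results. Of the 3 B cell markers summed here, 3 regions were held by all libraries, all in Pax5, and all 3 were higher with Res-shFabp7. Their summed normalised height was 88.8 to 99.6 fragments with Res-shFabp7 and 45.2 to 49.4 with Res-ctrl, while Cd79a had no region that all libraries held and Ms4a1 had no peak. Of the T cell markers 1 of 92 tested regions was higher and 1 lower, and their sum was 5179 to 5273 with Res-shFabp7 and 4956 to 5264 with Res-ctrl. The CD4 T cell, myeloid, NK cell and tumour epithelium lists had 9, 14, 9 and 4 tested regions, of which 0 passed the threshold. Of all regions tested for height, 3.13% were higher and 1.40% lower. Peaks numbered 10 to 11 with Res-shFabp7 and 5 to 7 with Res-ctrl for the tumour epithelium list, and 24 to 31 with Res-shFabp7 and 21 to 22 with Res-ctrl for the myeloid list. They numbered 134 to 141 with Res-shFabp7 and 115 to 133 with Res-ctrl for the T cell list. These 3 were apart between groups in raw counts, while the CD4 T cell and NK cell lists overlapped. The B cell list had 5 to 8 peaks with Res-shFabp7 and 4 to 5 with Res-ctrl, which touched at 5. The counts were not scaled to list length, and every Res-shFabp7 list was longer than every Res-ctrl list. Whether the marker counts differ beyond list length was not tested. A peak only with Res-shFabp7 occurred at 2 regions near Epcam, an epithelial adhesion molecule. The pileups there were 10, 9 and 15 and 9, 9 and 8. Such a peak also occurred at 1 region in Spi1, a myeloid and B cell factor, and at 1 near Cd4. The reverse occurred at 0 regions of the CD4 T cell, myeloid, NK cell and tumour epithelium lists. The shares of all regions with these patterns were 2.28% and 0.155%. In a population of cells, more cells with an open region and a region more open in each cell cannot be told apart, and the part of these marker differences in the results of the Myc window was not tested.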

How the data were processed

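ATAC-seq peak lists of 6 libraries were used, 3 per group. Per the labels' protocols, 35 to 75 M pairs of 76-base reads were sequenced per library, with no number for a single library. The submitters' processing notes name MACS2 2.2.7.1, Bowtie 1.1.2, cutadapt 2.8 and Trim Galore 0.6.5, and genome build mm10. The sources used here do not give read shifting for the transposase, duplicate handling or the MACS2 mode. The authors called peaks per library at a q of 0.05. Per the file headers, each deposited peak has start, end and summit positions, p-values and q-values as −log10, the pileup (the coverage signal at the summit) and the fold (a ratio of summit to local background). The q-value and fold are the authors' own values and were used to rank and describe peaks. Starts and summits count from 0 in the deposited lists and are given counted from 1.

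Peaks were merged at 1 bp of overlap, and a region took the tallest peak of each library. Regions were tied to genes of a RefSeq table of GRCm38.p6, the assembly of mm10, with 21887 protein-coding genes. Heights of the 56610 regions held by all libraries were log2-transformed, quantile-normalised and tested with limma 3.58.1 (trend, R 4.3.3), with Benjamini-Hochberg adjustment over all of them. Regions that some libraries lacked were not tested for height. Peaks per 1000 were compared by two-sided exact permutation over libraries. The p-values measure the spread between these libraries. On simulated heights of the same 56610 regions, 32% of 200 regions changed by 1 log2 were recovered and 0% of those changed by 0.5, with 2 and 0 false calls. With so few regions changed, the adjusted threshold is harder to pass than in the data, where 1773 regions were higher and 792 lower. The simulated shares are thus not the recovery of the real fit, which called differences under 0.5 log2, such as 0.43 log2 just upstream of Myc.

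Named were the start region, the 5 other tallest Myc regions, every Myc region past a threshold or held by 1 group only, the 8 tallest distal regions, the 8 strongest with 1 group only and up to 8 past the threshold (here those of lowest adjusted p), list genes with such regions, and the 5 genes most like Myc. Other named regions were chosen after their values were seen. The members and lists were chosen with earlier results of these data known. Alternatives were stricter q (0.01, 0.001), equal numbers of peaks (82153), merging within 200 bp, 50% cover, 20 kb as distance, other scalings, the fold, leaving out each library and a replicate block. Res-ctrl replicate 3 as the single control, and equal numbers, stricter q, merging and the filter on low heights for further results, were added after the data had been seen. Same-numbered libraries did not deviate together (correlations of -0.03, 0.03 and -0.02), so the numbers were not taken as pairs. No genome sequence was used, so that sequences are from RefSeq promoter windows alone, and the promoters of Myc and Pvt1 are not shown. A further marker of the B cell list is not reported here.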

Additional observations from a re-analysis of the deposited data

How the results depend on the processing

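The sign of the difference was kept in nearly all refits of the regions past the height threshold, and the calls often were not. These regions were chosen by their difference in the same libraries, so a kept sign is no further evidence. Of the 16 regions past the height threshold, 14 stayed past it under median scaling, 16 with the replicate block and 7 to 15 when 1 library was left out. With the authors' fold 0 did, and the distal region at 281.1 kb turned to -0.0284 log2. Over the genome, median scaling gave 1875 higher and 2010 lower regions in place of 1773 and 792, so that the split of all calls depends on the scaling, while 17 higher and 2 lower were distal and 0 higher and 2 lower at Myc. The replicate block gave 13 higher and 1 lower distal regions and 1 and 2 at Myc, with 1919 and 874 in the genome, and changed no other call. The fold gave 0 higher and 0 lower at both, and Res-ctrl replicate 3 alone, 3 libraries against 1 assumed to vary like the rest, also 0 and 0 at both, with 0 calls in the genome (lowest adjusted p 0.17 by limma, 6010 regions at an unadjusted p under 0.05). Merging within 200 bp gave 0 higher at Myc. With 1 library left out, Myc had 0 to 2 higher and 0 to 3 lower, the distal window 6 to 17 higher and 1 lower, and all regions 461 to 2204 higher. Without Res-ctrl replicate 1 these were 0 and 0 at Myc and 6 and 1 in the distal window, and 6 or 7 distal regions were higher without any one Res-shFabp7 library.

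Regions with a peak only with Res-shFabp7 numbered 0 at Myc and 4 in the distal window with equal numbers of peaks, and 1 at Myc when peaks had to cover 50% of the region. With 1 library left out the distal window had 21 to 35, and 0 to 2 only with Res-ctrl. Against Res-ctrl replicate 3 alone, 2 Myc and 11 distal regions had a peak only with Res-ctrl. The Myc peaks per 1000 differed by -0.000314 within 20 kb. The distal difference per 1000 was 0.378 to 0.499 with 1 library left out. The causes were not tested, except that fewer peaks enter with equal numbers. Res-ctrl replicates 1 and 2 had the lowest background, and the part of depth in the presence comparisons was not tested.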
